A study of Mus musculus with 20 samples.

Results

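The integrated stress response and the unfolded protein response were followed through 40 genes in mouse mammary tumour cells. The genes were picked by symbol and matched to the files by NCBI Gene number, and all 40 were found among the 19311 genes measured in the clones and among the 24454 genes measured in the knockdown cells. They were read in 7 groups by role, with 8 stress transcription factors and cofactors, 5 feedback and effector genes, 7 enzymes of asparagine, serine and one-carbon metabolism, 4 amino acid transporters, 4 genes for the sensors of the endoplasmic reticulum (ER) and their factor, 9 ER chaperones and folding proteins, and 3 genes of ER-associated degradation. RNA sequencing covered 20 libraries in 10 groups of 2. M1, M2 and M3 were stable mesenchymal clones, each 1 clone, and Py2T LT was the mammary tumour line Py2T after long-term TGF-beta 1 (2 ng/ml, over 10 days). Py2T comes from the MMTV-PyMT mouse, in which a viral promoter active in the mammary epithelium drives the polyoma middle T oncogene, and whether the clones also received TGF-beta is not given in the labels. The other 6 groups were M3 cells with an shRNA against Tet2 (M3 shTet2), an shRNA against Mbd3 (M3 shMbd3) or a control shRNA (M3 shControl), each with 2 µM CI994 for 72 hours (M3 shTet2.CI994, M3 shMbd3.CI994 and M3 shControl.CI994) or without it. CI994 inhibits class I histone deacetylases, Tet2 oxidises 5-methylcytosine, and Mbd3 belongs to the NuRD complex, which carries histone deacetylases. The series title asks about these proteins in the passage between epithelial and mesenchymal states.

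In the integrated stress response, kinases that sense unfolded proteins, lack of amino acids and other strains phosphorylate the translation factor eIF2, which slows protein synthesis in general but lets the messenger RNA of the transcription factor Atf4 be translated. Atf4 then turns on genes for amino acid synthesis and import, and a second tier of factors such as Ddit3 (CHOP) and Atf3. In the unfolded protein response the ER membrane sensors Eif2ak3 (PERK), Ern1 (IRE1) and Atf6 raise chaperones and the machinery that clears misfolded proteins, and Ern1 acts by splicing the Xbp1 messenger RNA. Because Atf4 is set by translation and Xbp1 by splicing, gene counts such as these do not measure those steps. Both responses are known in tumours, where secretory load and scarce nutrients engage them.

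Promoter windows from 250 bases before to 50 bases after the transcription start were taken from RefSeq (GRCm38.p6) and matched 35 of the 40 genes. They were searched on both strands for the CARE motif of Atf4 with C/EBP factors (TGATGNAAN), for the ERSE motif of Atf6 (CCAAT, then any 9 bases, then CCACG), for the UPRE motif of Xbp1 (TGACGTGG) and for the CRE motif (TGACGTCA). UPRE and CRE share the letters TGACGT, and the last 5 letters of ERSE are the first 5 of UPRE read on the other strand. CARE stood in the windows of 8 of the 35 genes (22.9%), against 3.95% of the 32851 promoters in the table and 2.74% of the 10281 tested genes with a promoter there. ERSE stood in 4 of the 35 (11.4%), against 0.119% of promoters and 0.195% of those tested genes. CRE stood in 1 (Ppp1r15a, 2.86%), against 1.79% and 3.60%, and UPRE in 0, against 0.676% and 1.02%. With the forward strand alone CARE was found in 2 of the 35. The stretches below are shown because they set apart the genes whose values are followed through the report, with the match in capitals, on the strand of the gene. Slc7a11 held a further CARE match and Hsp90b1 a further ERSE match, neither shown. A match describes letters only and is not evidence of binding.
Atf3 (chr1:191183421-191183460, minus strand, CARE): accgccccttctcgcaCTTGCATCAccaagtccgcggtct
Chac1 (chr2:119351032-119351071, plus strand, CARE): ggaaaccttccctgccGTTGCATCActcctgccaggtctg
Trib3 (chr2:152344024-152344063, minus strand, CARE): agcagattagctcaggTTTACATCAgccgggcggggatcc
Asns (chr6:7693209-7693248, minus strand, CARE): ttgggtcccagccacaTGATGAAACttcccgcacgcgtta
Nupr1 (chr7:126625558-126625597, minus strand, CARE): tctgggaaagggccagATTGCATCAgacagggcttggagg
Herpud1 (chr8:94386300-94386339, plus strand, CARE): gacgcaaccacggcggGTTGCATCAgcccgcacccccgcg
Slc7a11 (chr3:50443656-50443695, minus strand, CARE): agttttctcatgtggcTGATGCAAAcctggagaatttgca
Vldlr (chr19:27216803-27216842, plus strand, CARE): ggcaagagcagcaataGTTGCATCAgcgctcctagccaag
Hspa5 (chr2:34772014-34772053, plus strand, ERSE): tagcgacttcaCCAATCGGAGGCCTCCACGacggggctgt
Hsp90b1 (chr10:86705628-86705667, minus strand, ERSE): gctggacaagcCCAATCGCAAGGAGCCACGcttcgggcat
Dnajc3 (chr14:118937816-118937855, plus strand, ERSE): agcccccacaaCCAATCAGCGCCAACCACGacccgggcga
Creld2 (chr15:88819509-88819548, plus strand, ERSE): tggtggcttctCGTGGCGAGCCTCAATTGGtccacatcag

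RPKM, reads per kilobase of gene scaled to sequencing depth, were given for the clones and Py2T LT, with library sums of 340168 to 382930 and unknown absolute depth. The 12 knockdown libraries were given as CPM, reads scaled to sequencing depth alone, and held 16086082 to 24977595 reads. One library stood apart. M3 shControl replicate 1 differed from replicate 2 with an SD of 0.703 over genes on the log2 scale, against 0.206 to 0.243 in the other 5 CPM groups, and its difference in the highest decile of gene GC content was -1.77 relative to the lowest decile. In that group 15 of the 40 stress genes differed more than 1.5-fold between replicates (11 of them lower in replicate 1), as did 35.4% of all tested genes, while the other 5 groups had 0 to 2 such stress genes. The results for the stress genes that rest on this library are given with and without it. Mbd3 measured 22.1 and 27.7 CPM in M3 shMbd3, against 5.40 CPM in M3 shControl replicate 1 and 66.5 CPM in replicate 2. Replicate 1 goes against its label in that gene, and M3 shControl names it by its label only. Tet2 measured 8.41 and 7.97 CPM in M3 shTet2, against 15.1 and 13.8 CPM in M3 shControl. The epithelial cadherin Cdh1 measured 202 and 207 CPM in M3 shTet2 and 170 and 202 CPM in M3 shMbd3, against 16.3 and 25.7 CPM in M3 shControl. The leucocyte marker Ptprc reached at most 0.0291 RPKM and 0.378 CPM, and none of 4 endothelial markers was high enough to be tested, with sums of at most 1.44 RPKM and 0.808 CPM. Ptprc is 1 of 4 haematopoietic markers, and another, Cd68, was at 1.06 to 2.97 RPKM in the clones and Py2T LT. Sums of the 4 reached 20.5 CPM, in M3 shTet2.CI994. A fold below is a log2 difference of value + 0.5 after scaling, from limma fits over 11717 and 12808 tested genes, and a gene passed at a Benjamini-Hochberg adjusted p under 0.05. All 40 stress genes were tested in both fits. The p-values rest on the spread between the 2 libraries of each group, pooled over all groups of a fit. Less RNA per cell and fewer expressing cells cannot be told apart in such bulk samples.

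The clones held less of most of these genes than Py2T LT. For the mean of M1, M2 and M3, 30 of the 40 stress genes were lower than in Py2T LT, 3 were higher and 7 did not pass, where 32.6% of all tested genes were lower and 32.4% higher. The median log2 difference was -0.73 for the 40 genes and 0.00 for all tested genes. In M1 alone 26 were lower and 4 higher (all genes 30.2% and 30.7%), in M2 23 and 3 (29.2% and 28.2%), and in M3 32 and 2 (29.5% and 29.9%). These comparisons share the 2 Py2T LT libraries. Their SE and p-values rest on replicate libraries, so those for the mean of the clones do not measure the spread between clones. Py2T LT replicate 1 was more than 1.5-fold above replicate 2 in 10 of the 40 genes and below it in 0, where 2.65% of all tested genes differed that much. With each single library left out in turn, between 27 and 34 of the 40 passed for the mean of the clones. Other cell markers differed too. Of 4 mesenchymal markers Fn1, Zeb1 and Vim were lower in the mean of the clones and Cdh2 was higher, with sums of 961 to 1201 RPKM in M1, 1322 to 1370 in M2 and 1476 to 1494 in M3, against 2880 to 2988 RPKM in Py2T LT. Of 4 epithelial markers Krt18 and Epcam were higher in the mean of the clones. Epithelial sums were 1322 to 1932 RPKM in M1, 1459 to 1617 in M2 and 1299 to 1323 in M3. Those in Py2T LT were 1143 to 1177 RPKM, and most of each sum was Krt8 and Krt18. Cdh1 was lower in M1, at 1.05 and 1.11 RPKM against 2.32 and 1.56 RPKM in Py2T LT. It was higher in M2, at 6.01 and 4.27 RPKM, while in M3 only Epcam passed among these 4. The part of all these markers in the stress gene differences was not tested.

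**Figure D1:**
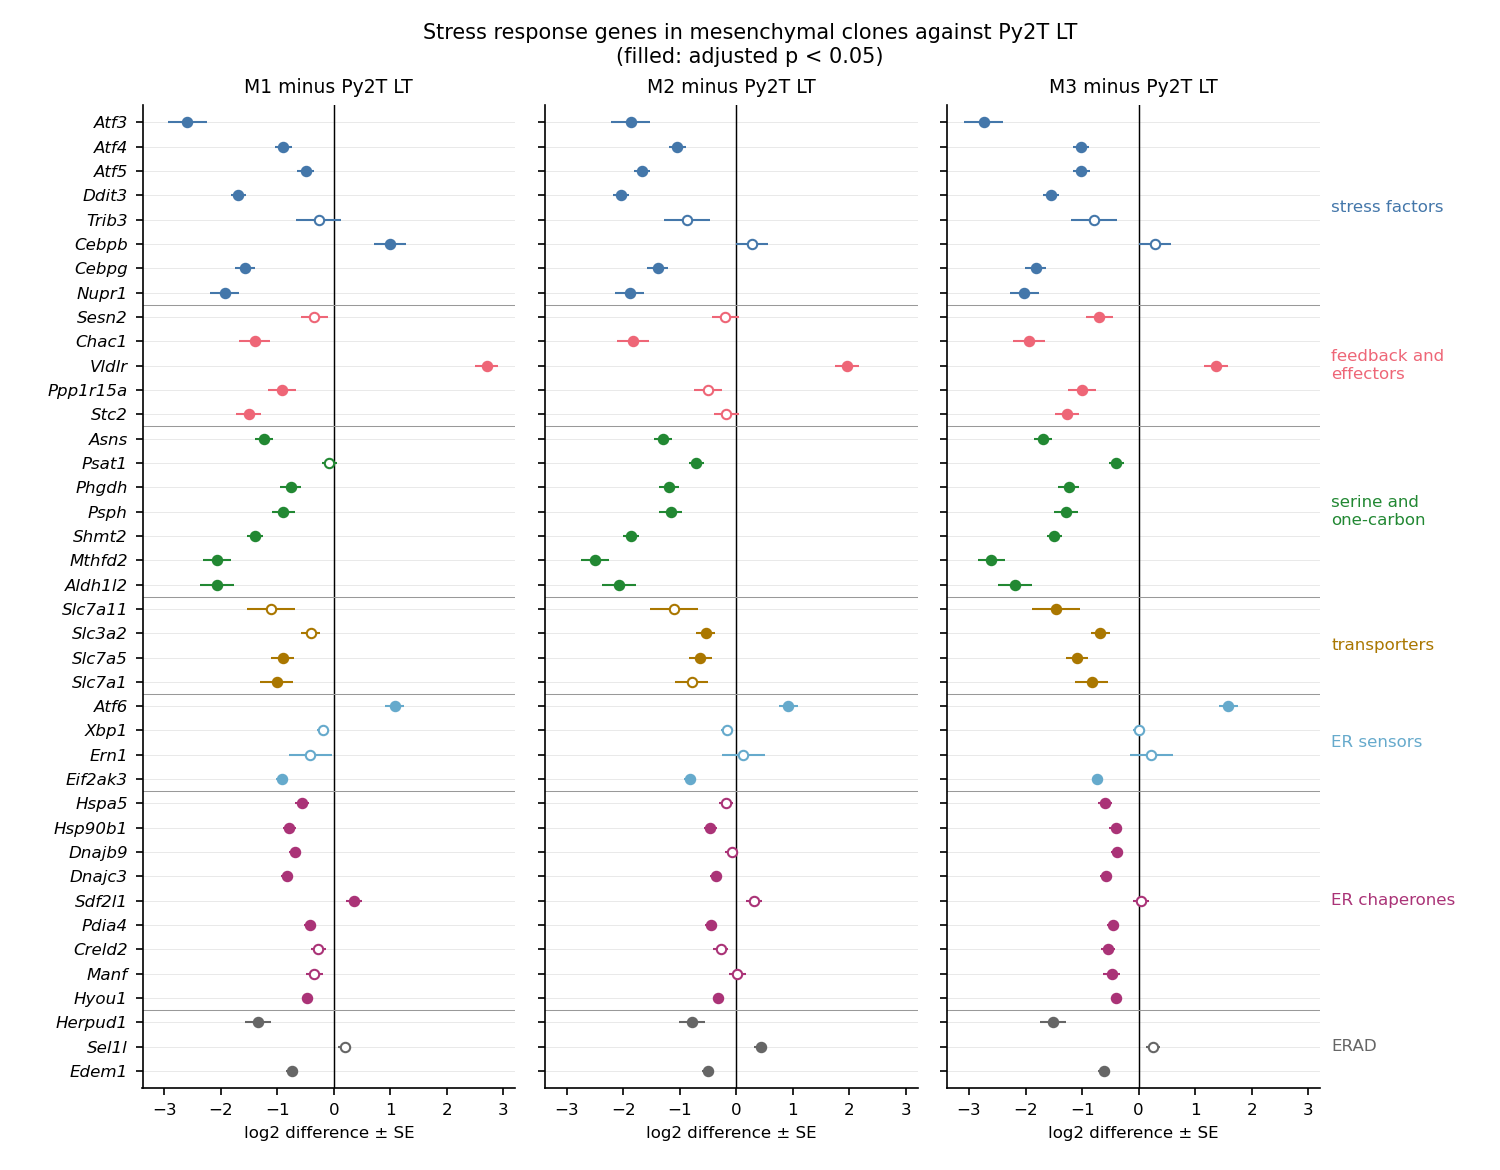
Log2 differences (x axis, error bars SE) of the 40 stress genes in M1, M2 and M3 against Py2T LT, ordered by role, filled where the adjusted p was under 0.05. Most genes lie left of 0 in all panels, down to -2.74 for Atf3 in M3, while Vldlr and Atf6 lie right of it.

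Among the stress transcription factors and cofactors, 6 of 8 were lower in the mean of the clones. Atf3, a factor induced in acute stress (chromosome 1, 191170296 to 191183333), measured 1.22 and 0.680 RPKM in M1, 2.47 and 1.35 in M2 and 0.473 and 1.15 in M3, against 9.60 and 6.50 RPKM in Py2T LT. All 6 clone libraries lay below both Py2T LT libraries, and the mean of the clones differed by -2.40 ± 0.28 (SE; adjusted p = 0.000157). Atf4 (chromosome 15, 80255184 to 80257545) was among the most abundant members, at 187 to 251 RPKM in the clones against 462 and 369 RPKM in Py2T LT, a difference of -0.98 ± 0.12 (adjusted p = 9.76e-05). Ddit3, the pro-apoptotic factor CHOP, measured 8.74 and 6.87 RPKM in M1, 6.04 and 5.77 in M2 and 7.64 and 9.26 in M3, against 26.1 and 24.9 RPKM in Py2T LT. Its difference was -1.76 ± 0.11 (adjusted p = 1.81e-06). Nupr1, a small stress-induced chromatin protein, was at 29.7 to 47.1 RPKM in the clones against 155 and 128 RPKM in Py2T LT, and Cebpg, a dimer partner of Atf4, at 7.04 to 12.7 against 35.3 and 28.0 RPKM. Atf5, a close relative of Atf4, was at 18.7 to 46.3 RPKM in the clones against 72.8 and 51.4 RPKM. The pseudokinase Trib3, which restrains Atf4, did not pass, with 11.1 to 21.6 RPKM against 36.5 and 14.9 RPKM. Cebpb, a C/EBP factor that pairs with Ddit3, passed in M1 alone, at 82.2 and 70.2 RPKM in M1 against 42.5 and 32.0 RPKM in Py2T LT, a difference of 1.00 ± 0.29 (adjusted p = 0.0209) that was 0.56 once each library's trend along GC content was removed. The call was lost without either M1 library (0.90 without replicate 1 and 1.08 without replicate 2) or without Py2T LT replicate 2 (0.79).

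The enzymes fell together. All 7 of the asparagine, serine and one-carbon group were lower in the mean of the clones, with a group median of -1.41. Mthfd2, the mitochondrial folate enzyme, measured 31.1 and 29.0 RPKM in M1, 23.0 and 20.7 in M2 and 24.4 and 16.6 in M3, against 158 and 97.6 RPKM in Py2T LT. The difference was -2.39 ± 0.20 (adjusted p = 2.82e-05). Aldh1l2, which consumes mitochondrial formyl-folate, was at 0.978 to 1.42 RPKM in the clones against 10.4 and 4.77 RPKM, a difference of -2.11 ± 0.24 (adjusted p = 0.000103). Shmt2, which splits serine in mitochondria, was at 64.4 to 101 RPKM against 265 and 206 RPKM, and the asparagine synthetase Asns at 33.7 to 57.4 against 140 and 104 RPKM. The serine synthesis enzymes Phgdh and Psph were at 7.58 to 13.8 and 15.6 to 25.5 RPKM, against 25.3 and 19.9 RPKM for Phgdh and 48.7 and 31.8 RPKM for Psph. The remaining serine synthesis enzyme, Psat1, was at 197 and 166 RPKM in M1, 119 and 114 in M2 and 145 and 140 in M3, against 212 and 165 RPKM in Py2T LT, and it did not pass in M1 (adjusted p = 0.616).

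All 4 transporters were lower in the mean of the clones, and in M3 all 4 passed, against 2 each in M1 and M2. Slc7a5, the leucine carrier, was at 33.3 to 49.2 RPKM in the clones against 96.8 and 57.1 RPKM, and its heavy chain Slc3a2 at 35.5 to 54.5 against 71.1 and 53.6 RPKM, so that 1 M1 library overlapped Py2T LT. The arginine carrier Slc7a1 was at 16.1 to 23.1 RPKM against 51.6 and 27.6 RPKM, and the cystine carrier Slc7a11 at 0.940 to 2.37 against 7.60 and 3.23 RPKM.

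The effector genes went both ways. Chac1, which breaks down glutathione, measured 6.74 and 6.98 RPKM in M1, 5.54 and 4.40 in M2 and 5.18 and 3.86 in M3, against 25.6 and 13.3 RPKM in Py2T LT, a difference of -1.72 ± 0.23 (adjusted p = 0.000294). Vldlr, a lipoprotein and reelin receptor that Atf4 is known to induce (chromosome 19, 27216480 to 27254231), measured 3.44 and 3.10 RPKM in M1, 2.11 and 1.41 in M2 and 1.21 and 0.763 in M3, against 0.119 and 0.0269 RPKM in Py2T LT. It moved against its group, by 2.01 ± 0.17 (adjusted p = 1.05e-05), a size that is compressed by the added 0.5 and was 3.48 with an added 0.1. Stc2, a secreted glycoprotein induced by Atf4, was at 0.637 to 2.69 RPKM in the clones against 3.44 and 2.34 RPKM, lower in M1 and M3, while it did not pass in M2. Ppp1r15a, the phosphatase subunit that ends eIF2 phosphorylation, was at 5.48 to 9.95 RPKM against 13.9 and 14.2 RPKM. Sesn2, a leucine sensor that restrains mTORC1, did not pass in the mean of the clones, at 4.60 to 8.75 RPKM against 11.2 and 6.73 RPKM.

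In the chaperone group 7 of 9 were lower in the mean of the clones, with a median of -0.39. Hspa5 (BiP), the main ER chaperone, measured 474 and 386 RPKM in M1, 548 and 555 in M2 and 438 and 383 in M3, against 598 and 634 RPKM in Py2T LT, a difference of -0.45 ± 0.10 (adjusted p = 0.00402). Hsp90b1 was at 388 to 557 RPKM against 650 and 744 RPKM, and the Eif2ak3 inhibitor Dnajc3 at 21.2 to 29.7 against 38.2 and 36.7 RPKM. Pdia4, Dnajb9, Creld2 and Hyou1 passed as well, with Pdia4 (a disulfide isomerase) at 90.2 to 105 RPKM in the clones against 126 and 131 RPKM and Hyou1 (a chaperone of the Hsp110 kind) at 64.4 to 75.1 against 91.6 and 88.6 RPKM. The neurotrophic folding factor Manf and the Hspa5 cofactor Sdf2l1 did not pass in the mean of the clones, with 82.8 to 127 RPKM against 126 and 121 RPKM for Manf, and 34.8 to 52.2 RPKM against 33.1 and 35.2 RPKM for Sdf2l1. All 4 genes with ERSE in the window above were among the 7 lower ones, where 30 of all 40 stress genes were lower. This count does not set the ERSE genes apart, and the share among all tested genes with ERSE was not counted.

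The sensors split. Eif2ak3 was lower, at 5.28 to 6.12 RPKM in the clones against 10.1 and 10.5 RPKM, and Atf6 was higher, at 33.4 and 39.5 RPKM in M1, 33.3 and 31.0 in M2 and 61.2 and 42.3 in M3, against 16.6 and 16.4 RPKM in Py2T LT. The Atf6 difference was 1.20 ± 0.14 (adjusted p = 7.99e-05). Xbp1 was at 56.4 to 67.5 RPKM against 69.5 and 63.5 RPKM and Ern1 at 6.74 to 17.0 against 15.0 and 12.8 RPKM, and neither passed. In ER-associated degradation Herpud1 was lower, at 9.17 to 16.7 RPKM against 37.2 and 20.3 RPKM, as was the mannosidase-like Edem1, at 19.8 to 23.9 against 34.3 and 32.0 RPKM. The ligase adaptor Sel1l was higher by 0.29 ± 0.10 (adjusted p = 0.0247), at 22.8 to 29.9 RPKM against 21.7 and 21.3 RPKM, a call that was lost without either Py2T LT library (0.30 and 0.28), either M2 library or M3 replicate 1. Of the 11 genes named with a difference for the mean of the clones, the other 10 passed whichever library was left out.

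**Figure D2:**
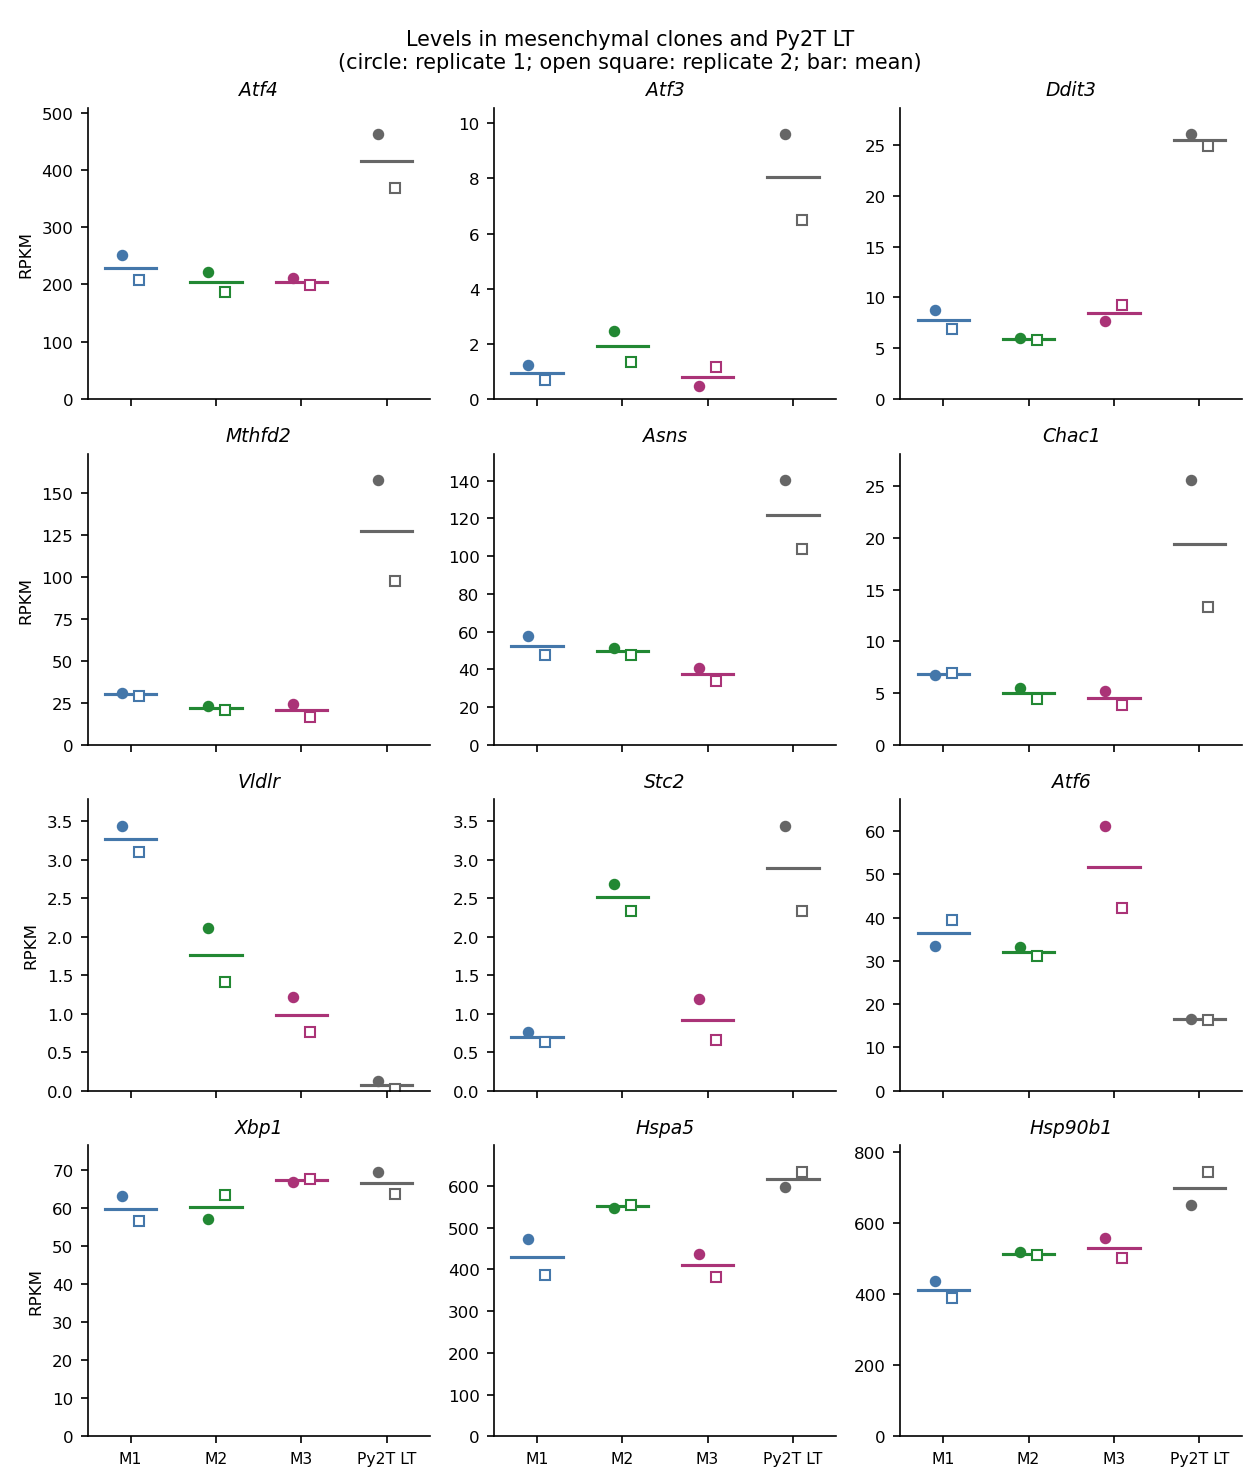
RPKM (y axes from 0) of 12 stress genes in both libraries of M1, M2, M3 and Py2T LT, with the mean as a bar. Atf3, Ddit3, Mthfd2, Asns and Chac1 lie lower in every clone library than in Py2T LT, Vldlr and Atf6 lie higher, Stc2 is low in M1 and M3 alone, and Xbp1 overlaps between groups.

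Differences among the clones were few. An F-test across M1, M2 and M3 passed for 7 of the 40 genes (17.5%), where 25.6% of all tested genes passed. Between M1 and M2, 4 were higher and 3 lower in M1 (all genes 12.5% and 10.6%), or 4 and 5 with DESeq2's median-ratio factors. Between M3 and M2, 3 were higher and 2 lower in M3 (10.6% and 9.55%), and between M1 and M3, 1 was higher and 0 lower in M1 (1.95% and 3.07%), with 11 genes at an unadjusted p under 0.05. Stc2 separated M2 from the others, at 0.759 and 0.637 RPKM in M1 and 1.20 and 0.651 in M3, against 2.69 and 2.33 RPKM in M2. The differences from M2 were -1.33 ± 0.22 in M1 (adjusted p = 0.00419) and -1.09 ± 0.22 in M3 (adjusted p = 0.0101). Atf5 was higher than in M2 by 1.17 ± 0.15 in M1 (adjusted p = 0.00112) and by 0.65 ± 0.15 in M3 (adjusted p = 0.0156). Vldlr was higher in M1 than in M3 by 1.33 ± 0.21 (adjusted p = 0.0096), and by 1.11 without M3 replicate 2, where it did not pass. Of these calls the Stc2 and Atf5 differences between M1 and M2 passed whichever library was left out. The Stc2 difference between M3 and M2 was lost without M2 replicate 1 (-1.01) or M3 replicate 2 (-0.82), and the Atf5 difference between M3 and M2 without any 1 of their 4 libraries.

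Other pathway genes were counted beside these, where 32.4% of all tested genes were higher in the mean of the clones and 32.6% lower. Of 19 cytosolic aminoacyl-tRNA synthetases, many of them Atf4 targets, 16 were lower in the mean of the clones, 1 was higher and 2 did not pass, with Gars at -1.57 ± 0.11 and Sars at -1.31 ± 0.10 (limma, adjusted p = 3.82e-06 and 6.05e-06). The exception was Vars at 1.13 ± 0.10. Of 24 further tested genes of the amino acid response, 5 were higher and 10 lower, among them the mitochondrial enzyme Pck2 at -1.29 ± 0.18 and the proline synthesis enzyme Aldh18a1 at -1.17 ± 0.14. Of 34 further ER folding, trafficking and degradation genes 9 were higher and 12 lower, near those shares of all genes. Among the lower ones was the collagen-related ER factor Creb3l1 at -4.61 ± 0.10. Of 11 cytosolic heat shock genes 9 were lower, among them Hspb1 at -4.76 ± 0.18, and the other 2 higher. Of 10 genes of the Nrf2 oxidative stress response 5 were higher, among them Nqo1 at 5.42 ± 0.13, and 3 lower.

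Knockdown of Tet2 in M3 cells came with rises among the stress genes. Of the 40 stress genes, 16 rose in untreated M3 shTet2 against M3 shControl, 0 fell and 24 did not pass, where 10.5% of all tested genes rose and 12.9% fell. Without M3 shControl replicate 1, 12 rose and 1 fell, where 16.5% of all genes rose and 16.5% fell, and 10 of the 16 passed again. The median log2 difference was 0.38 for the 40 genes and 0.02 for all genes, and 0.26 and 0.00 without that library. With scaling by library size alone 9 rose, as did 1109 of all 12808 tested genes. With the spread taken from these 2 groups alone 1 passed, and 327 of all tested genes. The risen genes were 5 of 8 stress factors, 2 of 5 effectors, 4 of 7 enzymes and 3 of 4 transporters, while of the 16 genes of the ER groups Creld2 and Herpud1 passed.

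Atf3 measured 7.79 and 8.87 CPM in M3 shTet2, against 0.915 and 1.29 CPM in M3 shControl. Both knockdown libraries lay far above both controls, and the difference was 2.50 ± 0.15 (adjusted p = 1.16e-05), or 2.38 without M3 shControl replicate 1. Sesn2 (chromosome 4, 132492804 to 132510456) measured 18.2 and 18.2 CPM against 4.07 and 9.25 CPM, a difference of 1.52 ± 0.26 (adjusted p = 0.00321; 1.03 without that library). Chac1 measured 11.9 and 11.2 CPM against 3.20 and 6.47 CPM, with 1.27 ± 0.26 (adjusted p = 0.00737; 0.87 without it). The next 3 rises changed with the controls and the processing. Atf5, at 57.7 and 54.6 CPM against 24.3 and 36.2 CPM, differed by 0.94 ± 0.16 (adjusted p = 0.00345), but by 0.44 (adjusted p = 0.172) once the GC trend was removed, while it passed whichever library was left out. Phgdh, at 102 and 108 CPM against 36.2 and 85.5 CPM, differed by 0.94 ± 0.28 (adjusted p = 0.0371), and by 0.38 without M3 shControl replicate 1, with calls lost by edgeR (0.84) and under library size scaling alone (0.91). Trib3, at 28.3 and 34.0 CPM against 12.1 and 24.2 CPM, differed by 0.87 ± 0.25 (adjusted p = 0.0364), and by 0.44 (adjusted p = 0.0596) without it. Of these 6 genes and Atf4, only Atf3, Sesn2 and Atf5 passed whichever library was left out.

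Atf4 itself was at 441 and 436 CPM in M3 shTet2 against 292 and 374 CPM in M3 shControl, a difference of 0.44 ± 0.10 (adjusted p = 0.0156). It was 0.32 without M3 shControl replicate 1, where it passed, and 0.13 with the GC trend removed, where it did not (adjusted p = 0.417). Among the enzymes Psat1, at 679 and 658 CPM against 407 and 443 CPM, Asns, at 203 and 184 against 138 and 112 CPM, and Mthfd2, at 77.8 and 71.1 against 44.6 and 51.1 CPM, rose and passed without that library as well. The transporter Slc7a1 did the same, at 121 and 123 CPM against 81.9 and 103 CPM. Slc3a2, Slc7a5, Nupr1, Herpud1 and Creld2 rose with all libraries and not without that one, when their adjusted p lay between 0.0608 and 0.0713. Ddit3, at 5.76 and 5.73 CPM against 2.33 and 5.99 CPM, and Aldh1l2, at 10.4 and 8.97 against 11.0 and 9.25 CPM, overlapped the controls and did not pass. Hspa5, at 1671 and 1334 CPM against 2084 and 1214 CPM, and Xbp1, at 156 and 127 against 190 and 160 CPM, did not pass either. Of the 8 genes with CARE in the window above, 6 rose, and 3 of them (Atf3, Chac1 and Asns) did so without M3 shControl replicate 1. Slc7a11 and Vldlr did not pass in either fit. Of the 4 with ERSE Creld2 rose. Of all 40 stress genes 16 rose, and rises among all tested genes with CARE or ERSE were not counted, so a link of the rises to a motif was not tested. In the fit without M3 shControl replicate 1 Creld2 did not pass, Hsp90b1 (0.50) and Sdf2l1 (0.61) rose and Ern1 fell (-0.52).

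**Figure D3:**
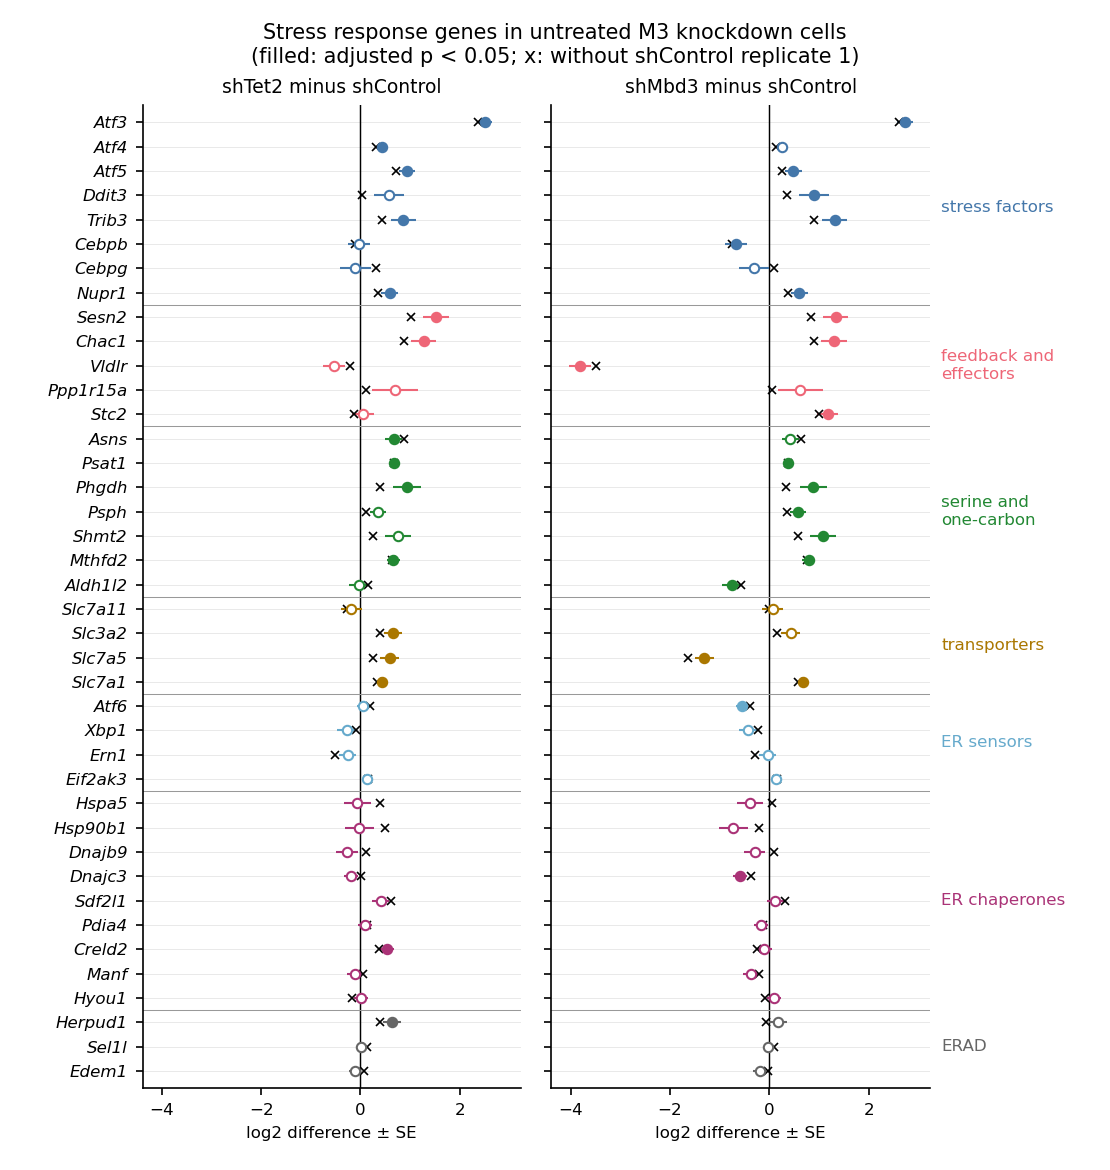
Log2 differences (x axis, error bars SE) of the 40 stress genes in untreated M3 shTet2 and M3 shMbd3 against M3 shControl, filled where the adjusted p was under 0.05, with crosses for the values without M3 shControl replicate 1. Atf3 stands at 2.50 and 2.73, Vldlr and Slc7a5 fall in M3 shMbd3, and Hspa5 and Hsp90b1 did not pass in either.

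Knockdown of Mbd3 gave 14 higher and 6 lower genes of the 40 against M3 shControl, where 15.3% of all tested genes were higher and 16.9% lower. Without M3 shControl replicate 1, 12 were higher and 5 lower (16.9% and 17.5% of all genes), and 16 of the 20 passed again. Atf5, Ddit3, Nupr1 and Aldh1l2 were lost and Asns (0.63) was gained. With the spread taken from these 2 groups alone 2 passed, and 305 of all 12808 tested genes. Atf3 measured 10.9 and 10.0 CPM in M3 shMbd3, against 0.915 and 1.29 CPM in M3 shControl, a difference of 2.73 ± 0.15 (adjusted p = 7.52e-06; 2.61 without that library). Sesn2, at 17.2 and 16.8 CPM against 4.07 and 9.25 CPM, differed by 1.33 ± 0.26 (adjusted p = 0.00566; 0.84 without it). Trib3, at 43.0 and 48.0 CPM against 12.1 and 24.2 CPM, differed by 1.32 ± 0.25 (adjusted p = 0.00525; 0.89 without it). Chac1 rose by 1.30 ± 0.26 (0.90 without it) and was at 11.6 and 13.5 CPM, and these last 3 genes were at 0.73 to 0.77 with the GC trend removed and still passed. Stc2, at 2.00 and 1.87 CPM against 0.412 and 0.719 CPM, rose by 1.17 ± 0.22 (adjusted p = 0.00482; 0.99 without it), and Shmt2, at 197 and 208 against 61.5 and 135 CPM, by 1.08 ± 0.26 (adjusted p = 0.0143; 0.58 without it and 0.56 with the GC trend removed). Ddit3, at 7.56 and 7.99 CPM against 2.33 and 5.99 CPM, rose by 0.89 ± 0.30 (adjusted p = 0.049), and by 0.35 without that library, where it did not pass (adjusted p = 0.171), and its call was also lost by edgeR (0.86) and under library size scaling alone (0.95). Atf4 did not pass, at 402 and 420 CPM against 292 and 374 CPM, and its difference of 0.25 ± 0.10 was -0.15 with the GC trend removed.

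Vldlr and Slc7a5 had the largest falls of the 40 in M3 shMbd3. Vldlr measured 1.21 and 0.803 CPM in M3 shMbd3, against 24.0 and 16.4 CPM in M3 shControl, and every knockdown library lay far below every control library. The difference was -3.82 ± 0.22 (adjusted p = 9.19e-06; -3.50 without M3 shControl replicate 1). Slc7a5 (chromosome 8, 121881146 to 121907686) measured 23.3 and 25.2 CPM against 44.2 and 76.6 CPM, a difference of -1.31 ± 0.19 (adjusted p = 0.00112; -1.64 without it), while its partner Slc3a2 was at 112 and 114 CPM against 64.0 and 101 CPM and did not pass. Smaller falls were those of Aldh1l2, by 0.75 on the log2 scale, Cebpb, by 0.67, Dnajc3, by 0.58, and Atf6, by 0.55. Of these, Aldh1l2 did not pass without that library (-0.58, adjusted p = 0.0653), Cebpb did not pass with scaling by library size alone (-0.61, adjusted p = 0.0643), and Dnajc3 was -0.38 without that library and -0.26 with the GC trend removed, and Cebpb was -1.18 and Atf6 -0.37 with that trend removed. Of the 13 genes named with a difference that passed, Atf3, Chac1, Sesn2, Slc7a5, Stc2, Trib3 and Vldlr passed whichever library was left out.

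Set directly against each other, M3 shTet2 was higher than M3 shMbd3 in 6 of the 40 genes and lower in 1, where 9.55% of all tested genes were higher and 9.6% lower. With the GC trend removed 12 were higher and 3 lower, and with scaling by library size alone the counts over all genes were 1018 higher and 1578 lower, against 1223 and 1230 with scaling factors. This test uses neither control library for its means. Vldlr measured 13.4 and 13.1 CPM in M3 shTet2, against 1.21 and 0.803 CPM in M3 shMbd3, a difference of 3.28 ± 0.22 (adjusted p = 4.44e-05). Slc7a5 measured 84.4 and 87.3 CPM against 23.3 and 25.2 CPM, a difference of 1.89 ± 0.19 (adjusted p = 0.000238). Aldh1l2, Creld2, Atf6 and Psat1 were higher in M3 shTet2 by 0.72, 0.63, 0.60 and 0.31, and the Psat1 call was lost by edgeR and under library size scaling alone (0.22). Stc2 was the one that was lower, at 0.614 and 0.548 CPM against 2.00 and 1.87 CPM, a difference of -1.12 ± 0.22 (adjusted p = 0.00795). M3 shControl replicate 1 still entered this test through the shared spread, and without it 16 of the 40 passed, with 45.2% of all genes. The Vldlr and Slc7a5 calls were the ones of these 7 that passed whichever library was left out.

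Other cell markers moved with both knockdowns. Of 4 epithelial markers 3 rose in M3 shTet2 (Cdh1, Krt18 and Epcam) and 2 in M3 shMbd3 (Cdh1 and Epcam), with summed levels of 3309 to 3753 CPM in M3 shTet2 and 2360 to 2425 CPM in M3 shMbd3, against 958 to 2462 CPM in M3 shControl. Of 4 mesenchymal markers, Vim and Zeb1 fell in both knockdowns, Fn1 fell in M3 shMbd3 and Cdh2 rose in both, with sums of 2902 to 3019 CPM in M3 shTet2 and 2734 to 3033 CPM in M3 shMbd3, against 4121 to 5925 CPM in M3 shControl. The macrophage marker Cd68 rose in M3 shTet2. With M3 shControl replicate 1 left out, Cd68 did not pass in M3 shTet2, all 4 epithelial markers rose and Fn1 also fell in M3 shTet2, and Krt8 and Cd68 fell in M3 shMbd3. The part of these markers in the stress gene changes was not tested. Of the 16 genes that rose in M3 shTet2, 15 (93.8%) were among the 32 of 40 (80%) that were lower in M3 than in Py2T LT, which is 46.9% of those 32. For M3 shMbd3 it was 13 of 14 (92.9%, and 40.6% of the 32).

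In the same untreated knockdown cells the further pathway lists went different ways. Of all tested genes 10.5% rose and 12.9% fell in M3 shTet2, and 15.3% rose and 16.9% fell in M3 shMbd3. Without M3 shControl replicate 1 the shares were 16.5% and 16.5% in M3 shTet2, and 16.9% and 17.5% in M3 shMbd3. Of the 19 aminoacyl-tRNA synthetases 7 rose in M3 shTet2 and 7 in M3 shMbd3, with 0 falls by limma in either, among them Sars at 0.91 ± 0.19 and 0.77 ± 0.19. Of 25 further amino acid response genes 7 rose and 1 fell in each, among them the mTORC1 inhibitor Ddit4 at 2.01 ± 0.23 in M3 shTet2 and 2.13 ± 0.23 in M3 shMbd3. Of 33 further ER genes 3 rose and 7 fell in M3 shTet2 and 2 rose and 10 fell in M3 shMbd3, among them the collagen isomerase Fkbp14 at -2.28 ± 0.27 and -2.42 ± 0.27. The Nrf2 response genes had 1 rise and 0 falls of 10 in M3 shTet2, and 0 rises and 3 falls in M3 shMbd3, with Nqo1 at -0.89 ± 0.22. Of 11 heat shock genes 2 rose in M3 shTet2 and 1 in M3 shMbd3. Leaving out M3 shControl replicate 1, the synthetases had 10 rises in M3 shTet2 and 8 in M3 shMbd3, Sars stood at 0.56 and 0.42, Ddit4 at 1.66 and 1.78 and Fkbp14 at -1.97 and -2.11, the ER genes had 6 rises in M3 shTet2 and 4 in M3 shMbd3, the Nrf2 response genes had 1 fall in M3 shTet2 and 5 in M3 shMbd3, and the heat shock genes had 4 rises in M3 shTet2 and 1 rise and 1 fall in M3 shMbd3. The further amino acid response genes then had 8 rises and 2 falls in M3 shTet2 and 7 and 2 in M3 shMbd3, and the ER genes 7 falls in M3 shTet2 and 11 in M3 shMbd3.

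CI994 changed between 5 and 10 of the 40 genes in each background. With rises and falls pooled, the called share was above that of all tested genes in none of them. For falls alone the share was above that of all genes in M3 shTet2 cells (12.5% against 11.7%) and in M3 shMbd3 cells (12.5% against 5.11%). It was below in M3 shControl cells (10% against 15.7%), and shares of rises were below those of all genes in each background. In M3 shTet2 cells 3 rose and 5 fell with the inhibitor (all genes 12.6% and 11.7%), in M3 shMbd3 cells 0 rose and 5 fell (7.58% and 5.11%), and in M3 shControl cells 6 rose and 4 fell (17.9% and 15.7%). Without M3 shControl replicate 1 the count in M3 shControl cells was 7 risen and 4 fallen (16.1% and 13.6%). In the other backgrounds, where that library enters through the spread alone, 18 passed in M3 shTet2 cells (57.5% of all genes) and 16 in M3 shMbd3 cells (41.8%). The median log2 differences of the 40 genes were -0.01 in M3 shTet2 cells and -0.13 in M3 shMbd3 cells, with and without that library. With the GC trend removed 3 rose and 9 fell in M3 shTet2 cells and 1 rose and 13 fell in M3 shMbd3 cells. Over all genes in M3 shMbd3 cells, 1581 rose and 1847 fell with that step, against 971 and 655 without it. The pooled share of the 40 genes in M3 shMbd3 cells was then above that of all genes. Under library size scaling alone 4 rose and 4 fell in M3 shTet2 cells, and under median-ratio factors 1 rose and 5 fell in M3 shMbd3 cells. In M3 shControl cells 0 passed when the spread came from its 2 groups alone, and 0 of all tested genes passed there.

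Aldh1l2 (chromosome 10, 83487447 to 83534146) fell with CI994 in every background. It measured 3.09 and 3.13 CPM in M3 shTet2.CI994 against 10.4 and 8.97 CPM in M3 shTet2, 2.44 and 1.80 CPM in M3 shMbd3.CI994 against 6.72 and 5.44 CPM in M3 shMbd3, and 5.24 and 4.28 CPM in M3 shControl.CI994 against 11.0 and 9.25 CPM in M3 shControl. The differences were -1.56 ± 0.20 (adjusted p = 0.00118), -1.33 ± 0.20 (adjusted p = 0.00409) and -1.05 ± 0.20 (adjusted p = 0.00711), and -0.87 in M3 shControl cells without replicate 1. Ern1, the IRE1 sensor (chromosome 11, 106397620 to 106487796), was at 91.2 and 89.0 CPM in M3 shControl.CI994 against 34.3 and 53.9 CPM in M3 shControl, a rise of 1.03 ± 0.17 (adjusted p = 0.00378; 0.76 without replicate 1). In M3 shTet2 cells it rose by 0.60 ± 0.17 (adjusted p = 0.0334), at 58.0 and 54.4 CPM against 38.0 and 32.5 CPM, and in M3 shMbd3 cells it was at 60.2 and 55.1 CPM against 46.3 and 41.5 CPM and did not pass.

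Atf3 was at 16.4 and 16.8 CPM in M3 shTet2.CI994 against 7.79 and 8.87 CPM in M3 shTet2, and at 3.60 and 3.22 CPM in M3 shControl.CI994 against 0.915 and 1.29 CPM in M3 shControl. It rose by 0.89 ± 0.15 (adjusted p = 0.00427) and by 1.27 ± 0.15 (adjusted p = 0.000881; 1.14 without replicate 1), while in M3 shMbd3 cells, at 10.1 and 9.76 CPM against 10.9 and 10.0 CPM, it did not pass. Sesn2 rose by 0.83 ± 0.26 in M3 shTet2 cells and by 1.01 ± 0.26 in M3 shControl cells (adjusted p = 0.0458 and 0.0199), the second being 0.52 without replicate 1. With the GC trend removed these were 0.30 and 0.27 and did not pass (adjusted p = 0.0614 and 0.0807). Phgdh rose in M3 shControl cells by 0.90 ± 0.28, but by 0.34 without replicate 1, and its call was lost by edgeR (0.80). Nupr1 rose there by 0.63 ± 0.17, or by 0.40 without replicate 1, and Slc7a1 by 0.42 ± 0.10, or by 0.31 without it.

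Atf4 fell with CI994 in both knockdowns. It was at 297 and 317 CPM in M3 shTet2.CI994 against 441 and 436 CPM in M3 shTet2, a difference of -0.59 ± 0.10 (adjusted p = 0.0047), and at 231 and 250 CPM in M3 shMbd3.CI994 against 402 and 420 CPM in M3 shMbd3, a difference of -0.78 ± 0.10 (adjusted p = 0.0021). In M3 shControl cells it was at 307 and 313 CPM against 292 and 374 CPM, with -0.13 ± 0.10 (adjusted p = 0.337), and it passed without replicate 1 (-0.25, adjusted p = 0.0314) and with the GC trend removed (-0.62), a setting that gave -0.94 in M3 shTet2 cells. Psat1 fell by 0.33 in M3 shTet2 cells and by 0.37 in M3 shMbd3 cells, and the first call was lost under library size scaling alone (-0.26, adjusted p = 0.0643). In M3 shMbd3 cells Mthfd2 fell by 0.51 and Atf5 by 0.84. Atf5 also fell in M3 shControl cells, by 0.57, or by 0.79 without replicate 1. With the GC trend removed the Atf5 values were -1.27 in M3 shMbd3 and -1.39 in M3 shControl cells. The co-chaperone Dnajb9, an Xbp1 target, fell by 0.74 ± 0.22 in M3 shTet2 cells and by 0.91 ± 0.22 in M3 shControl cells (by 0.53 without replicate 1), both -0.40 with the GC trend removed, and was at 33.6 and 33.5 CPM against 35.1 and 30.9 CPM in M3 shMbd3 cells. Dnajc3 fell by 0.60 in M3 shTet2 cells, and its fall of 0.47 in M3 shControl cells did not pass without replicate 1 (-0.26, adjusted p = 0.0659). Both Dnajc3 values were smaller with the GC trend removed, at -0.33 in M3 shTet2 cells and at -0.10, which did not pass, in M3 shControl cells. Hspa5 and Xbp1 did not pass in the 3 CI994 comparisons by limma. Of the genes named with a difference here, those that passed whichever library was left out were Aldh1l2 and Atf3 in M3 shTet2 cells, Aldh1l2 and Atf4 in M3 shMbd3 cells, and Atf3 and Ern1 in M3 shControl cells.

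**Figure D4:**
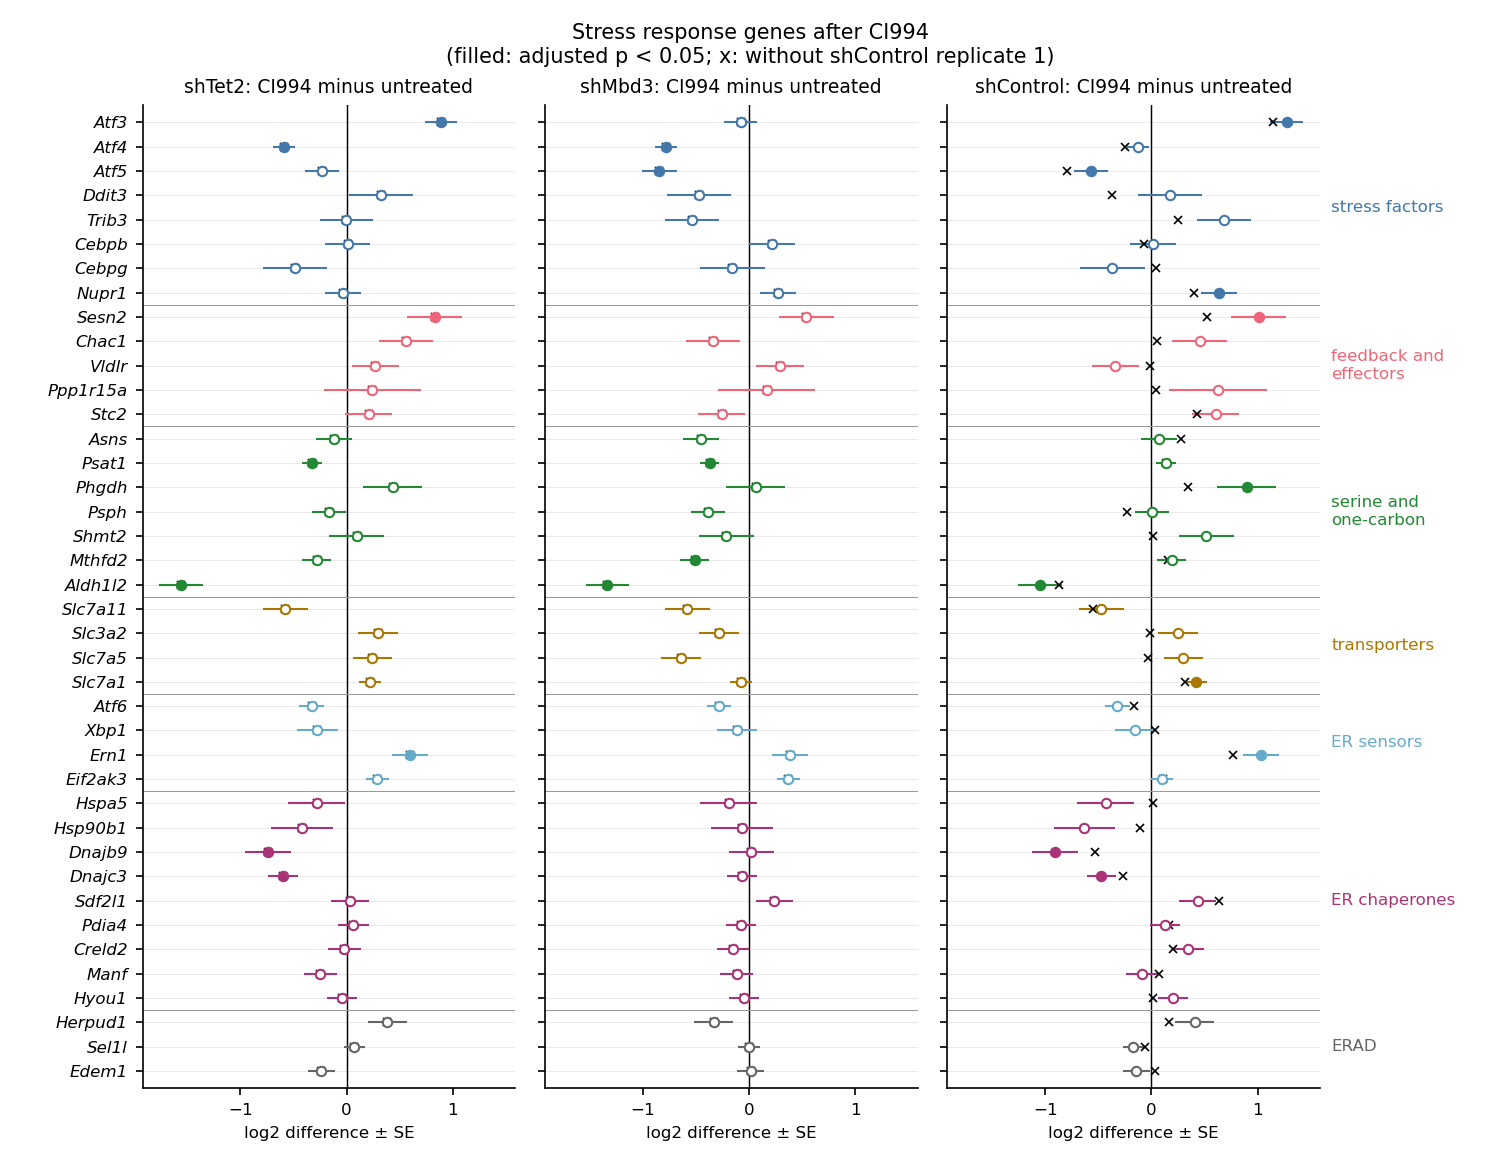
Log2 differences (x axis, error bars SE) of the 40 stress genes after CI994 against no CI994 in M3 shTet2, M3 shMbd3 and M3 shControl cells, filled where the adjusted p was under 0.05. Crosses in every panel give the values without M3 shControl replicate 1. Aldh1l2 lies at -1.56, -1.33 and -1.05, Atf4 falls in both knockdowns, and Atf3 and Ern1 rise in M3 shTet2 and M3 shControl.

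Macrophage markers moved with CI994 in all 3 backgrounds. Of 4 haematopoietic markers Cd68 and Lyz2 passed, both higher, with sums of 19.0 to 20.5 CPM in M3 shTet2.CI994 against 2.84 to 3.64 CPM in M3 shTet2, 11.5 to 11.8 CPM in M3 shMbd3.CI994 against 1.29 to 2.10 CPM in M3 shMbd3, and 10.2 to 10.5 CPM in M3 shControl.CI994 against 1.60 to 2.35 CPM in M3 shControl. The other 2 were low throughout, Ptprc at no more than 0.378 CPM and Itgam at no more than 0.125 CPM. The epithelial markers Cdh1, Krt18, Krt8 and Epcam rose in M3 shControl cells and Cdh1 in M3 shTet2 cells. The mesenchymal marker Fn1 rose in all 3 backgrounds and Cdh2 in M3 shTet2 cells. Mesenchymal sums were 7765 to 8894 CPM in M3 shTet2.CI994 against 2902 to 3019 CPM in M3 shTet2, 4120 to 4526 CPM in M3 shMbd3.CI994 against 2734 to 3033 CPM in M3 shMbd3, and 8219 to 8647 CPM in M3 shControl.CI994 against 4121 to 5925 CPM in M3 shControl. The part of these markers in the stress gene changes was not tested.

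Within CI994 the knockdowns could be compared without the doubtful library in either mean. In M3 shTet2.CI994 against M3 shControl.CI994, 6 of the 40 genes were higher and 1 lower (all genes 6.69% and 9.28%), and all 6 were among the 16 that rose without CI994 (100% of the 6 and 37.5% of the 16). Of those 16, 14 had a positive difference within CI994, where 26 of all 40 genes had one. These 2 comparisons share no library in their means, but both take their spread from the same fit over all 12 knockdown libraries. Atf3 measured 16.4 and 16.8 CPM against 3.60 and 3.22 CPM, a difference of 2.12 ± 0.15 (adjusted p = 3.37e-05). Chac1, at 15.6 and 20.8 CPM against 6.25 and 6.94 CPM, differed by 1.38 ± 0.26 (adjusted p = 0.00605), Sesn2, at 32.8 and 36.0 against 12.8 and 13.6 CPM, by 1.34 ± 0.26 (adjusted p = 0.0075), and Atf5, at 52.1 and 48.2 against 21.1 and 19.5 CPM, by 1.28 ± 0.16 (adjusted p = 0.000759). Slc3a2 was higher by 0.70 ± 0.19, and Herpud1 by 0.61 ± 0.18, a call lost by edgeR (adjusted p = 0.0513) and under library size scaling alone (adjusted p = 0.0653). Ern1 was lower, at 58.0 and 54.4 CPM against 91.2 and 89.0 CPM, with -0.68 ± 0.17. The Atf3 and Atf5 calls passed whichever library was left out. Atf4 was at 297 and 317 CPM against 307 and 313 CPM, and the groups overlapped.

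In M3 shMbd3.CI994 against M3 shControl.CI994, 3 genes were higher and 7 lower (all genes 8.11% and 11.0%). Atf3, at 10.1 and 9.76 CPM against 3.60 and 3.22 CPM, was higher by 1.39 ± 0.15 (adjusted p = 0.000306), as were Sesn2 by 0.86 ± 0.26 and the PERK gene Eif2ak3 by 0.40 ± 0.11. Vldlr measured 1.43 and 1.24 CPM against 15.8 and 16.1 CPM, a difference of -3.19 ± 0.22 (adjusted p = 2.78e-05). Slc7a5 measured 14.6 and 16.3 CPM against 72.8 and 73.9 CPM, a difference of -2.25 ± 0.19 (adjusted p = 6.17e-05). Aldh1l2, Ern1, Creld2, Atf6 and Atf4 were lower too, at -1.04, -0.68, -0.60, -0.51 and -0.40. Under library size scaling alone the Sesn2 and Atf4 calls were lost. The Atf3, Slc7a5 and Vldlr calls passed whichever library was left out. Of the genes lower without CI994, 4 of 6 (66.7%) were lower here, which is 57.1% of the 7, and of those higher without it 2 of 14 (14.3%), Atf3 and Sesn2, which is 66.7% of the 3. Without M3 shControl replicate 1, 19 of the 40 passed for M3 shTet2 (40.5% of all genes) and 16 for M3 shMbd3 (44.1%).

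M3 shTet2.CI994 against M3 shMbd3.CI994 had 12 of the 40 genes higher and 1 lower (all genes 11.1% and 10.8%), and 20 passed without M3 shControl replicate 1 (46.8%). Vldlr, at 17.7 and 16.1 CPM against 1.43 and 1.24 CPM, differed by 3.26 ± 0.22 (adjusted p = 3.33e-05), and Slc7a5, at 102 and 112 against 14.6 and 16.3 CPM, by 2.78 ± 0.19 (adjusted p = 3.08e-05). Herpud1, at 38.6 and 34.1 CPM against 16.0 and 16.0 CPM, was higher by 1.18 ± 0.18, and Atf5, Chac1 and Slc3a2 by 1.06, 0.87 and 0.80, with the Chac1 call lost under library size scaling alone. Dnajb9 was lower, at 19.8 and 19.2 CPM against 33.6 and 33.5 CPM, with -0.74 ± 0.22. The Vldlr, Slc7a5, Herpud1 and Atf5 calls passed whichever library was left out.

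**Figure D5:**
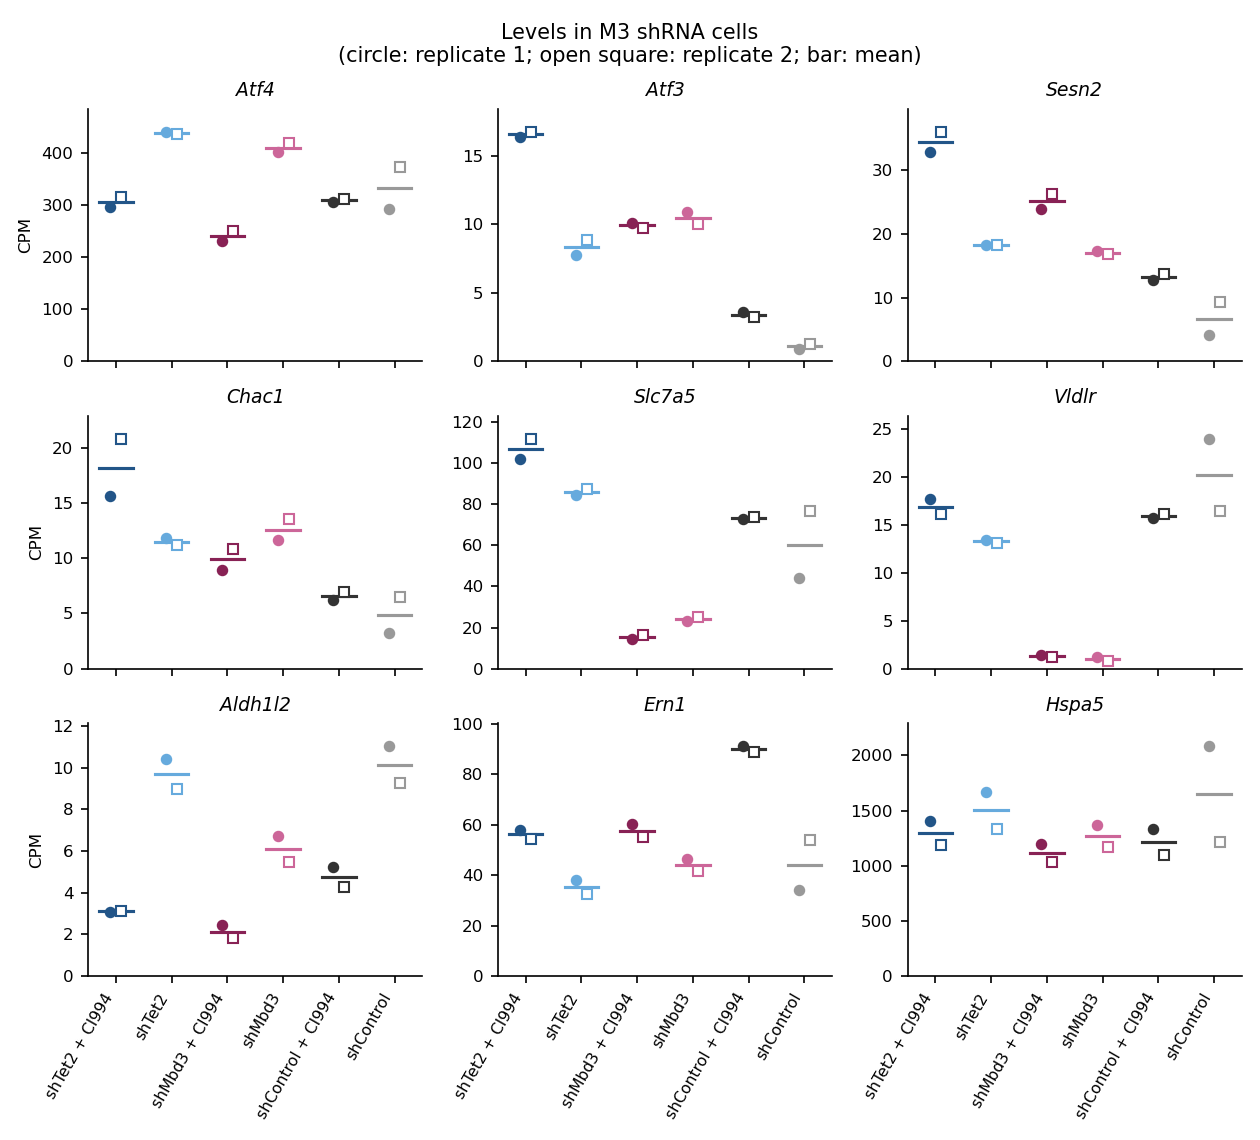
CPM (y axes from 0) of 9 stress genes in both libraries of each M3 shRNA group with and without CI994, with the mean as a bar. Atf3 is highest in M3 shTet2.CI994 and lowest in M3 shControl, Vldlr and Slc7a5 are low in both M3 shMbd3 groups, and Aldh1l2 is lower with CI994 in each background.

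Whether a knockdown altered the response to CI994 was tested as the interaction, the knockdown difference with CI994 minus that without. By limma 0 of the 40 genes passed for shTet2 (all genes 0.414% higher and 0.273% lower) and 0 for shMbd3 (0.039% higher and 0.039% lower). At an unadjusted p under 0.05 there were 4 for shTet2 and 12 for shMbd3, edgeR called 0 and 0, and DESeq2 called 0 and 3. The 3 were Atf3, Atf4 and Psat1, all negative. For Atf3 with shMbd3 the interaction was -1.35 ± 0.22 (adjusted p = 0.065), and for Atf4 -0.65 ± 0.15 (adjusted p = 0.161). Without M3 shControl replicate 1, Psat1 passed for shTet2, at -0.46 (6.36% of all genes passed), and Atf3 and Atf4 passed for shMbd3, at -1.22 and -0.53 (0.726%).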

How the data were processed

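RNA-seq of 20 libraries (Illumina TruSeq Stranded Total RNA, 2 per group) was analysed. Reads were aligned with STAR to mm10, per the submitters' processing notes; versions and the counting step are not given in the sources used here, so reads shared with pseudogenes or overlapping genes cannot be told apart. The authors deposited RPKM for 8 libraries, whose absolute depth is unknown (relative depth 0.865 to 1.06), and CPM for 12 libraries. CPM values gave whole reads (tolerance 0.01) in 100% of cases, 16086082 to 24977595 per library. Recovered reads were used for edgeR and DESeq2 alternatives only.

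The 40 members, the other gene lists and the tests were chosen with earlier results of these data known. Differences were fitted with limma 3.58.1 in R 4.3.3 (trend, robust) on log2(value + 0.5), over genes that reached 1 RPKM or, for the knockdown libraries, 0.5 CPM in no fewer than 2 libraries, with all groups of a unit in 1 fit and Benjamini-Hochberg adjustment over all tested genes at 0.05. Values were divided by scaling factors (0.982 to 1.02 for RPKM, 0.940 to 1.03 for CPM). In both units each was a TMM factor (edgeR 4.0.16) multiplied by the library sum over tested genes and scaled to a geometric mean of 1. This took the place of the TMM factor alone, as first planned. The fits were tested on simulated data. All 40 members could be named, with fold changes for the 6 largest rises and 6 largest falls that passed in a comparison and for Atf4, Atf3, Ddit3, Xbp1 and Hspa5, and up to 3 rises and 3 falls for each other list. GC content was known for 94.4% and 95.6% of tested genes. Alternatives were edgeR, DESeq2 1.42.0, median-ratio factors, library size alone, pseudocounts of 0.1 and 1, no filter, a replicate block, GC trend removal, a spread from the compared groups alone, and leaving out each library.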

Additional observations from a re-analysis of the deposited data

How the results depend on the processing

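Of 2832 alternative values for 138 differences of named genes, 2405 kept direction and side of the threshold, 412 lost the call, 13 gained one and 2 reversed. Both reversals were Atf4 in M3 shMbd3 against M3 shControl, which had not passed and was -0.15 with the GC trend removed, with or without the block. The counts of the 40 genes that moved by over 1.5 times follow, and calls over all tested genes moved with the settings too, as given below. With no filter M3 against M2 had 2. With the spread from the compared groups alone the counts were 11 for M3 against M2, 1 for shTet2, 2 for shMbd3, 0 for CI994 in M3 shControl, 22 in M3 shTet2 and 14 in M3 shMbd3 cells, 20 and 17 for shTet2 and shMbd3 within CI994, and 18 for shTet2 against shMbd3. With library size alone shTet2 had 9. With the GC trend removed CI994 in M3 shMbd3 cells had 14, shTet2 within CI994 14, shTet2 against shMbd3 15, and the interactions 1 and 4. DESeq2 gave 3 for the shMbd3 interaction. CARE on the forward strand alone was in 2 promoters.

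The labels do not say that a replicate number marks a shared batch, so the numbers were not taken as pairs. Correlations of same-numbered deviations ran from -0.122 to 0.128 in RPKM. In CPM they ran from 0.0958 to 0.524 and were above 0.1 in 14 of 15 pairs of groups, and a shared replicate effect there was not tested further. A replicate block gave 20 for shTet2, 26 for shMbd3, 17, 14 and 8 for CI994 in M3 shControl, M3 shTet2 and M3 shMbd3 cells, 13 for shTet2 within CI994 and 12 for shTet2 against shMbd3. All tested genes gained calls with it too, with 3913 for shTet2 (2996 as reported) and 5862 for CI994 in M3 shControl cells (4302 as reported). The block with the GC trend removed gave 2 for M1 against M3, 21 and 17 for CI994 in M3 shTet2 and M3 shMbd3 cells, 20 and 19 within CI994 for shTet2 and shMbd3, 22 for shTet2 against shMbd3 without and with CI994, and 4 and 9 for the interactions. Over all tested genes it gave 496 for M1 against M3 (589 as reported) and 4634 for CI994 in M3 shMbd3 cells (1626 as reported). Within CI994 it gave 5388 for shMbd3 and 5908 for shTet2 against shMbd3 (2451 and 2800 as reported). The interactions then had 1198 and 639 (88 and 10 as reported).

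With each library left out in turn the counts ran from 25 to 31 for M1, 19 to 27 for M2, 27 to 33 for M3 and 27 to 34 for the mean of the clones against Py2T LT, 2 to 10 for M1 and 0 to 11 for M3 against M2, 1 to 5 for M1 against M3, and 3 to 16 for the F-test. They ran from 4 to 27 for shTet2, 10 to 32 for shMbd3, 2 to 28, 2 to 18 and 2 to 16 for CI994 in M3 shControl, M3 shTet2 and M3 shMbd3 cells, 2 to 19 and 3 to 16 for shTet2 and shMbd3 within CI994, 2 to 16 and 5 to 20 for shTet2 against shMbd3 without and with CI994, and 0 to 17 and 0 to 28 for the interactions.

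The highest interaction counts above came without M3 shControl replicate 2, where the doubtful replicate 1 was the only untreated M3 shControl library. With a library left out its group had no replicate, and calls over all tested genes ran widely as well. The leave-out ranges therefore do not set the stress genes apart. Calls over all tested genes moved with the other settings too. Under the alternatives that kept every library they ran from 1338 to 2713 for M1 against M2 (2708 as reported), 158 to 604 for M1 against M3 (589), 327 to 5843 for shTet2 (2996), 305 to 6357 for shMbd3 (4126), 0 to 5862, 2951 to 7368 and 1503 to 4634 for CI994 in M3 shControl, M3 shTet2 and M3 shMbd3 cells (4302, 3111 and 1626), 1931 to 5241 and 2337 to 5388 for shTet2 and shMbd3 within CI994 (2045 and 2451), 2154 to 5604 and 2692 to 5908 for shTet2 against shMbd3 without and with CI994 (2453 and 2800), and 0 to 1198 and 0 to 639 for the interactions (88 and 10). By edgeR on recovered reads shTet2 had 2918 in place of 2996 and shMbd3 3970 in place of 4126. With 2 libraries a group, a call rests on the spread pooled over groups, and depth is unknown for the RPKM libraries.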
